A study of Caenorhabditis elegans with 5 samples.

Results

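Transcript levels after 24 h of benzene were set against those of unexposed worms in Caenorhabditis elegans, with 2 of the 5 arrays of the series, the array titled for benzene exposure and the array titled as not exposed. Both arrays hold RNA of whole wild-type hermaphrodites, young adults of 3 days from synchronised cultures. The exposed worms were kept with benzene for 24 h at 20 °C in K-medium, a salt solution, without food. The other 3 arrays hold toluene, formaldehyde and a mix of the 3 compounds (BTF mix) under the same protocol, and the series screened the transcript profile of each exposure. No source used here states the concentration of benzene, or how the unexposed worms were incubated or fed. The arrays were hybridised with biotinylated cRNA, prepared by 3′-primed labelling of 300 ng total RNA per sample.

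Benzene is an aromatic solvent that animals oxidise with cytochrome P450 enzymes to phenols and quinones, which are then conjugated to sugars, sulfate or glutathione. In the nematode the intestine carries out most of this work and is also the organ of digestion, fat and yolk synthesis and defence against swallowed microbes. The cuticle, a collagen matrix secreted by the hypodermis, separates the worm from the solution around it.

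The deposited intensities were taken to log2(intensity + 16), each gene was read from its probe set of highest mean, and genes below the 40th percentile of mean level (an intensity of 50.1) were left out, which left 10271 of 17118 genes. These means are over all 5 arrays, so a gene dim in unexposed worms could pass through its levels on the exposed arrays. Each group is a single array, so differences lack a replicate check, tests and errors cannot be given, and precision is limited by the number of arrays. Higher and lower refer to these arrays only. A difference below is a log2 difference, benzene minus unexposed, unless another exposure is named. Among 724 genes read by several probe sets not marked as able to bind other transcripts, the benzene differences of one gene's probe sets lay 0.14 apart in the median and 0.39 apart at the 90th percentile. These probe sets share the same arrays, so the gap holds no variation between worms, cultures or arrays.

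Of the 10271 genes, 123 (1.2%) were at least 2-fold higher after benzene and 18 (0.175%) at least 2-fold lower, 1.37% in all. At 1.5-fold, 357 genes (3.48%) were higher and 94 (0.915%) lower, 4.39% in all. The median difference was -0.01, and 95% of genes lay between -0.43 and 0.70. With the arrays scaled on their poly-A control spikes instead, the median of all genes moved to 0.40, and 361 genes were 2-fold higher and 7 lower. Of the genes 2-fold away, 98.1% were then higher, against 87.2% under the deposited scaling. Differences below are therefore relative to the bulk of genes on each array. Just inside the 2-fold threshold were C14F11.4 (1.01) and cpr-5 (1.02), and T15B7.1 (0.99) and cest-33 (0.97) lay just outside. On the lower side T14B1.1 (-1.04) was just inside and frm-3 (-0.98) just outside.

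The 2-fold higher genes lay on every chromosome of the nuclear genome. On chromosome IV 37 of 1695 genes were 2-fold higher, on V 32 of 1882, on II 29 of 1791, on X 12 of 1427, on III 7 of 1674 and on I 6 of 1770. Without the major sperm protein genes 27 remained on chromosome IV and 16 on II, and V kept its 32. The median gene length of the 123 was 1131 bp, and 1303.5 bp without the major sperm protein genes, against 2459 bp over all genes. Probe sets marked s or x, which can bind more than one transcript, read 71 of the 123, and 1.95% of marked genes were 2-fold higher against 0.785% of unmarked genes. They also read 4 of the 18 genes 2-fold lower. The mark is given below for some genes only, so its absence does not mean an unmarked probe set. The 3′ to 5′ ratio of the actin control probe sets, a gauge of RNA integrity, was 3.35 on the benzene array and 4.94 on the unexposed array, and its part in the results was not tested.

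**Figure D1:**
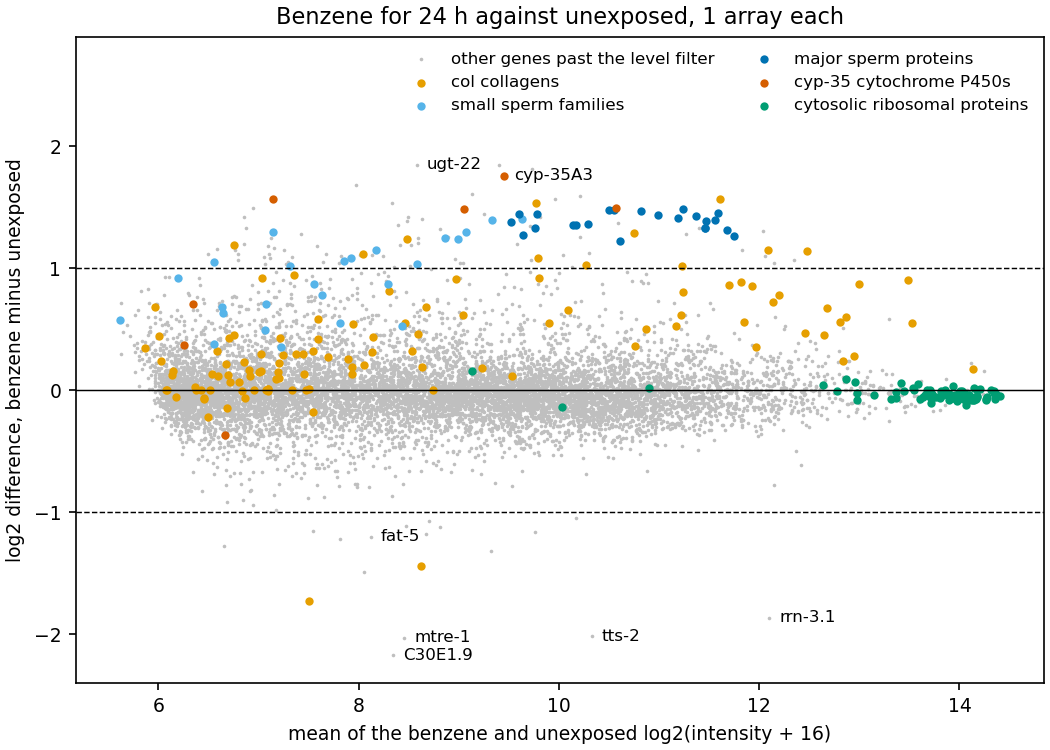
Log2 difference between the benzene and the unexposed array (y axis) against the mean log2 level of the same arrays (x axis), 1 point per gene for the 10271 genes past the level filter, with 5 families coloured and dashed lines at 2-fold. Of the small sperm family genes 12 of 25, and of the cyp-35 genes 4 of 7, lie above the upper line, the ribosomal protein genes at the right lie on 0, and C30E1.9, mtre-1, tts-2 and rrn-3.1 are the lowest points.

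Among cytochrome P450 genes, which carry out the oxidation step of foreign compound metabolism, those 2-fold higher all belonged to the cyp-35 subfamily. cyp-35A3, an intestinal P450 gene known to respond to many foreign compounds, had an intensity of 1273 after benzene and 365 in unexposed worms (1.76). cyp-35A2 had 874 against 302 (1.49), and cyp-35A4 had 227 against 66.2 (1.57). cyp-35C1 had 2539 against 891 (1.49) on a marked probe set, and 509 against 133 (1.82) on its unmarked one. These 4 were the 2-fold higher members of the subfamily, which has 10 genes on the array and 7 past the level filter. cyp-35A5 was below 2-fold with 88.4 against 47.9 (0.71), and cyp-35B2 stood at 0.37. cyp-35B1, a gene used as a readout of the insulin pathway factor DAF-16, was lower at 73.6 against 99.4 (-0.36). cyp-35A1, cyp-35B3 and cyp-35D1 were too dim to pass the filter, and with them the subfamily's median was 0.54 in place of 1.49. Of the 63 other P450 genes, 37 passed the filter and none was 1.5-fold away in either direction, where 4.39% of all genes were. Their differences ran from -0.32 to 0.39 with a median of -0.01, the same as over all genes.

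Conjugating enzymes showed a few high members in families whose middle stayed near that of all genes. Of 43 UDP-glucuronosyltransferase genes past the filter (64 on the array), which attach sugars to foreign compounds, 3 were 2-fold higher, and the family's median was 0.04. ugt-22 had the largest positive difference of all genes, with 711 after benzene and 186 in unexposed worms (1.85). ugt-21 had 192 against 57.6 (1.495), and ugt-46 had 429 against 192 (1.099) on a marked probe set. The family reached both ways, since ugt-12 had 184 against 296 (-0.65), and 6 members were 1.5-fold higher and 3 lower. Of 28 glutathione S-transferase genes (45 on the array), 2 were 2-fold higher and the median was 0.06. gst-36 had 695 against 269 (1.32) and gst-26 251 against 94.3 (1.28). gst-4, the usual reporter of the oxidative stress factor SKN-1, had 118.6 against 84.9 (0.41), below 1.5-fold.

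Among 25 short-chain dehydrogenases, dhs-25 with 571 against 238 (1.21) and dhs-23 with 117 against 45.3 (1.11) were 2-fold higher. The unexposed level of dhs-23 lay below the filter's intensity of 50.1, and its exposed arrays brought it past. Of 35 ABC transporter genes the peroxisomal half-transporter pmp-5 was the 1 that was 2-fold higher. It had 728 against 345 (1.05) on a marked probe set. The 24 epoxide hydrolase and carboxylesterase genes and the 15 alcohol and aldehyde dehydrogenase genes had medians of 0.06 and 0.07. Neither list had a member 2-fold away, where 1.37% of all genes were. The regulators known to govern these enzymes were not among the high genes. Of 7 such regulators past the filter none was 1.5-fold away, where 4.39% of all genes were, so this count does not set the list apart. Their median was -0.24, and the aryl hydrocarbon receptor gene ahr-1 had 109.9 against 141 (-0.32). The nuclear receptor genes nhr-8 (-0.52) and nhr-49 (-0.33) were lower as well, while skn-1 stood at 0.07. Over 113 nuclear hormone receptor genes the median was -0.07, none was 1.5-fold away, and nhr-114 (0.58) was the highest. Medians below 0 such as these turned above 0 under the poly-A scaling, along with the median of all genes.

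Of all the lists, the major sperm proteins held the most genes that were 2-fold higher. Major sperm protein, the cytoskeletal protein by which nematode sperm crawl and a signal to the oocyte, is encoded by many near-identical genes. All 23 of its genes measured here were 2-fold higher, and their differences lay between 1.23 and 1.48 with a median of 1.39. The highest, msp-31, had 4035 after benzene and 1432 in unexposed worms (1.48), and the lowest, msp-74, had 2374 against 1005 (1.23). All 23 were read from marked probe sets, so they are not separate measurements. The 1 unmarked probe set of these genes, for msp-32, had 116.2 against 89.1 (0.33). In whole-animal RNA, a different number of cells of a type and a different amount of RNA per cell cannot be told apart.

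Small sperm-specific families were higher too, and here unmarked probe sets gave a similar median. All 25 of their genes past the filter (32 on the array) had positive differences, 12 were 2-fold higher and 19 were 1.5-fold higher, with a median of 0.92. The 9 read from unmarked probe sets had a median of 0.87. By family, the msd genes, which encode MSP-domain proteins, had 2 of 2 members 2-fold higher, nspd 3 of 5, ssq 2 of 3, ssp 3 of 8, nspa 1 of 1, nspb 1 of 4 and sss 0 of 2. msd-2 had 1277 against 473 (1.403), and ssp-34 had 319 against 145 (1.06). ssq-2 had 337 against 151 (1.08), but 88.97 against 96.8 (-0.10) on a second probe set. In all, 35 of the 123 genes that were 2-fold higher belong to these families or to the major sperm proteins. The count goes by gene name, so sperm genes under other names, such as htas-1 below, are outside it.

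The genes that build and activate sperm did not stand with the sperm structural genes. Of 21 such genes past the filter (31 on the array), 1 was 2-fold higher and the median was 0.02. That gene was htas-1, a histone H2A variant of sperm, with 145 after benzene and 60.6 in unexposed worms (1.07). The sperm phosphatase genes gsp-3 and gsp-4 followed at 0.83 and 0.73, both on marked probe sets, and cpb-1, which is needed for spermatocyte divisions, had 1402 against 1966 (-0.48). All 31 genes of oocytes, eggshell and embryo provision passed the filter on these arrays of hermaphrodites, and none was 1.5-fold away, with a median of -0.12. The yolk receptor gene rme-2 had 3333 against 3324 (0.00). Among 31 germline and meiosis genes none was 1.5-fold away either, and the median was -0.01. With 4.39% of all genes 1.5-fold away, neither count sets its list apart.

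**Figure D2:**
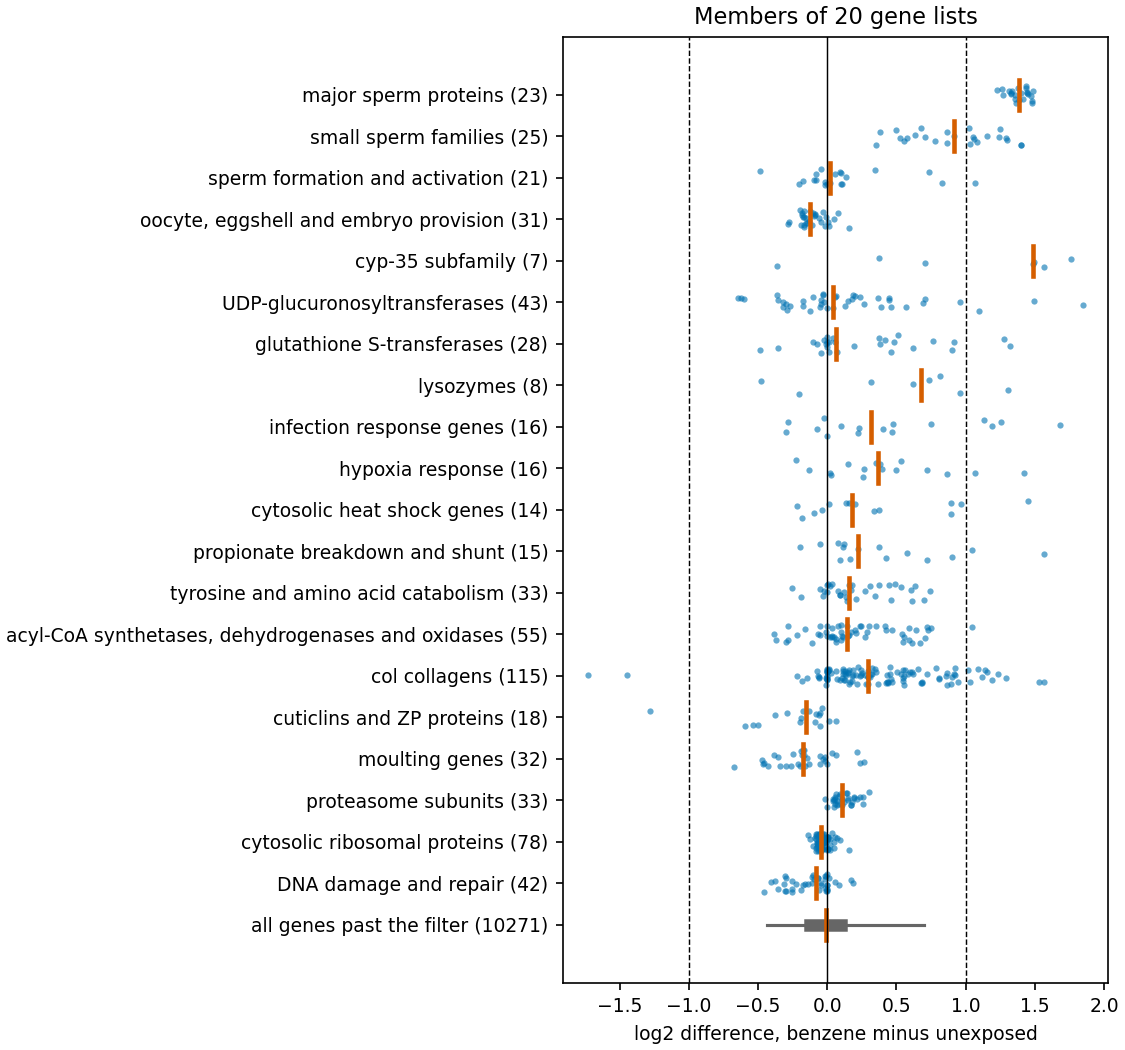
Log2 difference between the benzene and the unexposed array (x axis) for each gene past the level filter in 20 gene lists, 1 point per gene, with the number of genes in brackets, the list median as an orange bar and dashed lines at 2-fold. In the bottom row the thick bar spans the middle 50% of all genes and the thin line 95%, from -0.43 to 0.70, and the 23 major sperm protein genes at the top all lie right of the 2-fold line.

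Among chaperone genes the high values were those of cytosolic heat shock proteins. The cytosolic heat shock list had a median of 0.18 over 14 genes, with 1 gene 2-fold higher and 4 genes 1.5-fold higher. hsp-17, a small heat shock protein gene, had 1286 after benzene and 460.0 in unexposed worms (1.45). The inducible chaperone hsp-70 had 2284 against 1159.6 (0.97), hsp-16.2 2296 against 1227 (0.90) and hsp-16.41 2450.0 against 1311 (0.89), all just under 2-fold. The constitutive hsp-90 (0.02) and the heat shock factor hsf-1 (-0.12) stood near 0, and hsp-16.20 was lower at -0.22. Of 20 genes of the endoplasmic reticulum's unfolded protein response none was 1.5-fold away, and its chaperone hsp-4 stood at 0.39. None of 13 genes of the mitochondrial response was 1.5-fold away, where hsp-6 had identical intensities on both arrays and hsp-60 stood at 0.27. With 4.39% of all genes 1.5-fold away, these counts do not set either response apart.

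Of 24 oxidative defence genes 1 was 1.5-fold away, a share near the 4.39% of all genes. That gene was msra-1, which reduces oxidised methionine in proteins, with 2045 against 665 (1.598). The thioredoxin reductase gene trxr-1 had 238 against 351 (-0.53). Among 14 metal response genes cdr-4, a gene first described for its response to cadmium, had 574 against 204 (1.42) on a marked probe set. The metallothionein mtl-2 had 1950.4 against 1241 (0.65). No gene of DNA damage and repair was 1.5-fold away among 42, where 4.39% of all genes were, and the median was -0.08. The lowest of these was the translesion polymerase gene polk-1 with 868 against 1197 (-0.46), and the p53 homologue cep-1 had 855 against 883 (-0.05).

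Genes linked to the hypoxia factor HIF-1 were mostly higher, and toluene gave a like list median. Of 16 hypoxia genes 14 had positive differences, 2 were 2-fold higher and 4 were 1.5-fold higher, with a median of 0.36. The flavin monooxygenase fmo-2 had 173 with benzene, 178 with toluene, 186 with formaldehyde, 288 with the mix and 54.6 in unexposed worms, so all 4 exposed arrays were above the 1 unexposed array they share. The prolyl hydroxylase subunit phy-2, which modifies collagen, had 1209, 1239.6, 986 and 1145 on these exposed arrays and 569 in unexposed worms, on a marked probe set. F22B5.4 had 1846 with benzene, 2179 with toluene, 1261 with formaldehyde, 1150.4 with the mix and 1004 in unexposed worms. For F22B5.4 the benzene and toluene levels were thus the higher ones. cysl-2, of the cysteine synthase family, stood at 0.72, lactate dehydrogenase ldh-1 at 0.54 and the sulfide oxidoreductase sqrd-1 at 0.50. The list median was 0.36 with benzene, 0.34 with toluene, 0.19 with formaldehyde and 0.21 with the mix.

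Several catabolic routes had most of their enzymes higher, mainly by less than 2-fold. In the shunt that breaks down propionate without vitamin B12, 4 of 5 enzymes were 1.5-fold higher, a subgroup singled out after its values were seen. acdh-1, the first enzyme, had 6502 after benzene and 3141 in unexposed worms (1.05), and hphd-1 had 1698 against 561 (1.57) on a marked probe set. hach-1 stood at 0.91, ech-6 at 0.72 and the last enzyme, alh-8, at 0.09. The 7 genes grouped as B12-dependent, those of the propionate route and metr-1 of the methionine cycle, were between 0.07 and 0.42. None of them was 1.5-fold away, where 4.39% of all genes were. Over the whole propionate list of 15 genes the median was 0.22.

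Tyrosine breakdown was singled out in the same way. Its 5 enzymes were all higher by 0.37 to 0.64, with a median of 0.60. The aminotransferase tatn-1 had 695 against 441 (0.64), and the dioxygenase hpd-1 had 1426 against 933 (0.60). The homogentisate oxidase hgo-1, which opens the aromatic ring, had 1356 against 879 (0.62), gst-42 194 against 146 (0.37) and fah-1 608 against 427 (0.49). Of these genes tatn-1, hgo-1 and fah-1 were read from marked probe sets. The kynurenine branch of tryptophan breakdown, also singled out after its values were seen, had 5 genes between 0.17 and 0.74, with kmo-1 at 227 against 129 (0.74) and kynu-1 at 319 against 190.4 (0.70), both on marked probe sets. The whole list of 33 amino acid catabolism genes had a median of 0.16, and 5 were 1.5-fold higher and none lower.

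**Figure D3:**
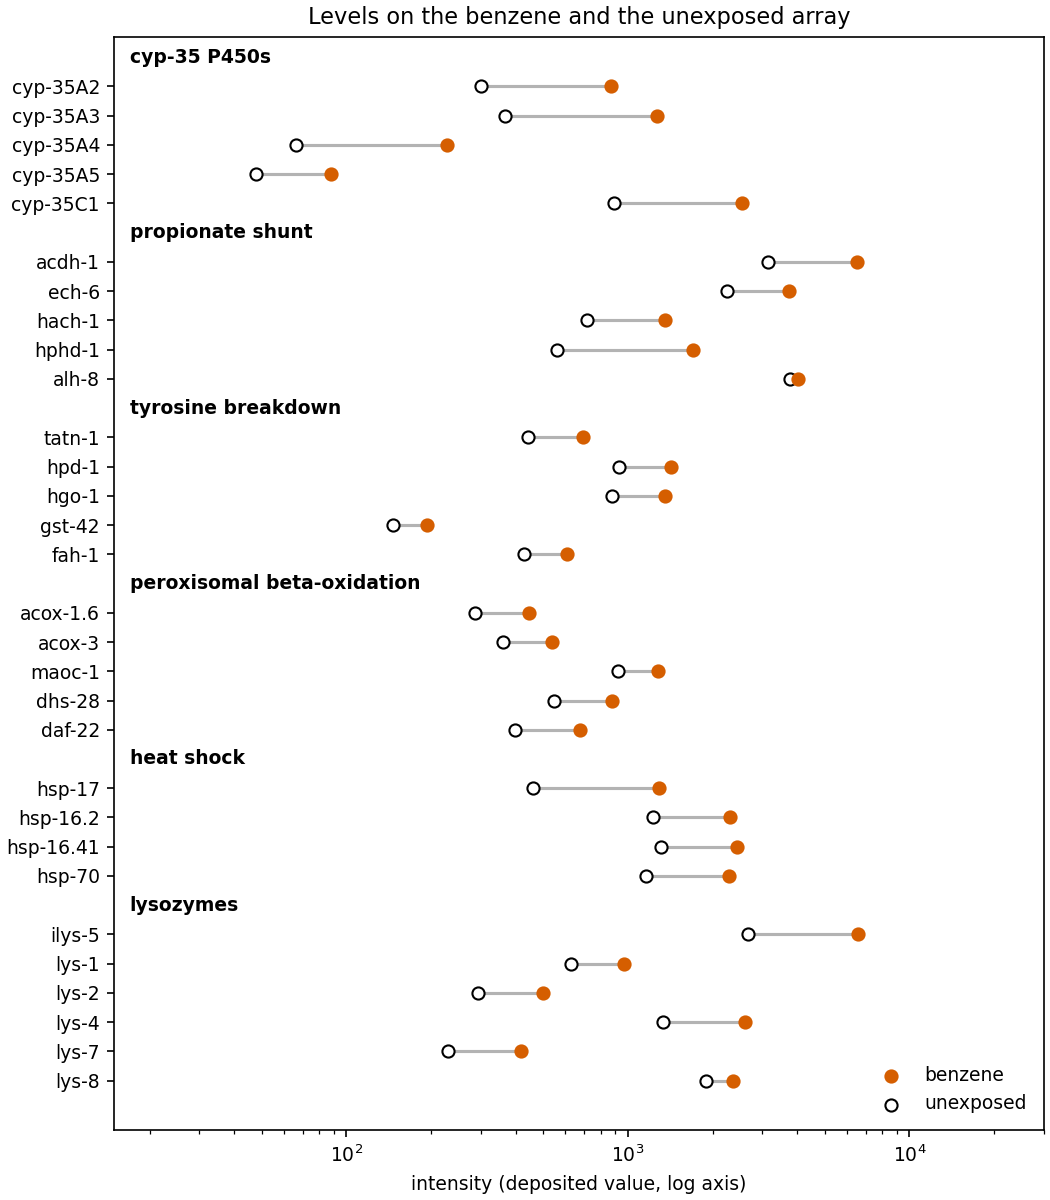
Deposited intensity (x axis, log scale) of 30 genes in 6 groups on the benzene array (filled points) and on the unexposed array (open points), 1 array each, joined by a line for each gene. The genes were chosen with earlier results of these data known. Lower members of the cyp-35, lysozyme and heat shock lists, such as cyp-35B1 (-0.36), ilys-4 (-0.48) and hsp-16.20 (-0.22), were not drawn. Among those drawn, each filled point lies to the right of its open point, with the widest gap at cyp-35A3 (1.76) and the narrowest at alh-8 (0.09).

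Fat metabolism showed shifts in both directions. Of 55 acyl-CoA synthetase, dehydrogenase and oxidase genes, 42 had positive differences and 10 were 1.5-fold higher, with a median of 0.15. Peroxisomal beta-oxidation, which also shortens the side chains of the ascaroside pheromones, had 7 genes past the filter, all higher by 0.30 to 0.75, a subgroup singled out after its values were seen. Its thiolase daf-22 had 676 after benzene and 396 in unexposed worms (0.75), and its dehydrogenase dhs-28 had 877 against 546 (0.67). The mitochondrial thiolase kat-1 had 2607 against 1564 (0.73). Peroxisome biogenesis genes did not share this, with a median of -0.11 over 11 genes. Of the desaturases, fat-5, which desaturates palmitate, had 167 against 406 (-1.202), and fat-7, which desaturates stearate, had 1338 against 741 (0.84). The elongases elo-5 and elo-2 were at 0.74 and 0.66, and sbp-1, the SREBP homologue that governs these genes, was at -0.49. None of the 16 lipase genes was 1.5-fold higher, where 3.48% of all genes were. Their median was -0.12, and the lysosomal lipase lipl-2 had 157 against 267 (-0.71). Of the 5 yolk protein genes, vit-1 alone was 2-fold away with 5281 against 1775 (1.56), and the others lay between -0.04 and 0.22.

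Energy and protein turnover genes differed little between the arrays. The 24 genes of glycolysis, gluconeogenesis and glyoxylate had a median of 0.19, the 19 vacuolar ATPase genes 0.15 and the 33 proteasome subunits 0.11. None was 1.5-fold away in any of these lists, where 4.39% of all genes were. Of the proteasome genes 31 had positive differences, from -0.02 to 0.30 over the list, with pas-2 the highest at 0.30. In the respiratory chain 1 of 54 genes was 2-fold higher, the cytochrome c gene cyc-2.2 with 189.5 against 74.7 (1.18). The 78 cytosolic ribosomal protein genes lay within a narrow range, from -0.14 to 0.16, with a median of -0.04.

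Genes expressed in the gut, for digestion and for defence, held several of the high values. The 20 intestine marker genes past the filter had a median of 0.29, where 2 were 2-fold higher and 7 were 1.5-fold higher. Unmarked probe sets, which read 9 of them, gave a median of 0.13, with none 2-fold higher. act-5, the actin of intestinal microvilli, had 1325 after benzene and 511 in unexposed worms (1.35) on a marked probe set, while the intestinal transcription factor elt-2 had 102.8 against 100.1 (0.03). Other tissue markers stayed nearer 0, with medians of 0.04 for body wall muscle (25 genes), -0.01 for hypodermis (12), -0.05 for neurons (18) and -0.09 for pharynx (16). So did further gut lists, with medians of 0.11 for both brush border genes (18) and acid phosphatases (7). Aquaporin, amino acid and peptide transporters (25) stood at -0.0015, and solute and organic ion transporters (46) at -0.03. Among cathepsin B-like proteases, cpr-9 had 5387 against 2422 (1.15), and cpr-5 had 1576 against 772 (1.02) on a marked probe set. In contrast, cpr-2 had 271 against 588 (-1.07). Of the 8 cpr genes 7 had positive differences, with a median of 0.55, a subgroup taken out of its list after its values were seen.

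Lysozymes, which digest bacterial walls, had 8 of 16 genes past the filter, of which 5 were 1.5-fold higher. ilys-5 had 6588 after benzene and 2659.9 in unexposed worms (1.303), and lys-4 had 2596 against 1330.0 (0.96). lys-7 stood at 0.81, lys-2 at 0.74 and lys-1 at 0.62, while ilys-4 was lower at -0.48. Their median was 0.68, but 0.06 over the 4 read from unmarked probe sets and 0.13 when the dim members were counted in. Of 16 infection response genes 4 were 2-fold higher, with a median of 0.32. These were irg-8 with 436 against 125 (1.68), irg-5 with 721 against 293 (1.26), irg-4 with 1856 against 839 (1.13) and hrg-7, a secreted aspartic protease, with 500.3 against 210.4 (1.19). For the same list the toluene array gave a median of -0.03, the formaldehyde array 0.53 and the mix 0.56. C-type lectins, the largest of the defence lists, had 70 genes past the filter (220 on the array). None was 2-fold away, where 1.37% of all genes were. Their median was 0.00, with clec-61 at -0.92 and clec-57 at 0.86. Of 39 saposin-like and antimicrobial peptide genes, spp-4 was 2-fold higher with 709.9 against 328 (1.08).

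Cuticle collagens were mostly higher. Of 115 col collagen genes past the filter (128 on the array), 94 had positive differences, 11 were 2-fold and 31 were 1.5-fold higher, and 2 were 2-fold lower, with a median of 0.29. Unmarked probe sets, which read 69 of them, gave a median of 0.19. col-159 had 5362 after benzene and 1797 in unexposed worms (1.57), and col-101 had 1469 against 497 (1.53), both on marked probe sets. The opposite was seen in col-74 with 83.7 against 315 (-1.73) and col-165 with 223 against 634 (-1.44). The 20 collagens named for body shape mutants had a median of 0.28 and 6 of them were 1.5-fold higher, led by sqt-2 with 319 against 177 (0.79). Within that list dpy-14 and dpy-17 went the other way, with dpy-14 at 1174 against 1635 (-0.47) and dpy-17 at 1699.9 against 2310.4 (-0.44).

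Cuticlin, moulting and lipocalin-related genes were mostly lower. Of 18 cuticlin and ZP-domain genes, which form cuticle ridges and apical matrix, 16 had negative differences, with a median of -0.15. On a marked probe set cut-3 was 2-fold lower with 48.9 against 142 (-1.28). Of 32 moulting genes 26 had negative differences, with a median of -0.17, and 1, the patched-related ptr-4, was 1.5-fold lower with 81.9 against 140.0 (-0.67). All 7 lipocalin-related lpr genes had negative differences, from -0.47 to -0.16. Under the poly-A scaling these list medians were above 0 (0.24, 0.24 and 0.11), yet below the 0.40 of all genes. Among 49 prion-like pqn and abu genes, pqn-13 had 143 against 431 (-1.49) and abu-14 566 against 1286 (-1.16). On a marked probe set abu-15 had 305 against 139.8 (1.04). A dimmer probe set stood at -0.73 for pqn-13 and -0.37 for abu-14. Of 21 hedgehog-related genes, grd-3 with 966 against 307 (1.61) and grd-5 with 563 against 205 (1.39) were 2-fold higher, and the list's median was 0.00. The patched-related genes, whose relatives in other animals receive hedgehog signals, had a median of -0.17 over 18 genes.

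Among the 18 genes 2-fold lower, 3 are not protein-coding. C30E1.9, an ncRNA gene on chromosome X, had 137 with benzene, 717 with toluene, 98.1 with formaldehyde, 199.8 with the mix and 674 in unexposed worms (-2.17). Its toluene and unexposed levels were alike, and the other 3 arrays were lower. The ncRNA tts-2 had 624 with benzene, 1014 with toluene, 285 with formaldehyde, 245 with the mix and 2571 in unexposed worms (-2.02). rrn-3.1, a gene of the large ribosomal RNA, had 2289 with benzene, 5693 with toluene, 5094 with formaldehyde, 7078 with the mix and 8378 in unexposed worms (-1.86). It was the 1 gene of 10271 for which the benzene array was 2-fold below all 4 other arrays, and its other probe sets stood between -1.46 and -1.15. Ribosomal RNA carries no poly-A tail, and a kit that primes on such tails is not built to label it. No gene was 1.5-fold above all 4 other arrays after benzene, the nearest being the innexin gene inx-9, which stood 0.38 above the next array. The other low genes included mtre-1, on a marked probe set, with 158 against 694 (-2.03) and chtb-1 with 390.2 against 996 (-1.32). T14B1.1, gei-13, phat-5, R02F11.1, Y97E10AR.1 and ZK180.5 were the rest. Of the 18 genes 8 have several probe sets, and in 5 of these another probe set was less than 1.5-fold lower. These stood at 0.19 for ZK180.5, -0.31 for Y97E10AR.1, -0.32 for gei-13 and, as given above, -0.37 for abu-14, and T14B1.1 had others at -0.60 and -0.10. Of the 123 higher genes 12 have several probe sets, and 3, msp-32, ssq-2 and ssq-3, had another at 0.33, -0.10 and -0.22 in that order.

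The genes that were 2-fold away after benzene can be set beside their values on the other exposed arrays, all of which share the unexposed array. The median over the 123 higher genes was 1.2495 with benzene, 0.74 with toluene, 2.19 with formaldehyde and 2.07 with the mix. Over the 18 lower genes it was -1.25, -1.04, -2.08 and -1.90 in the same order. The sperm and cyp-35 lists were likewise lowest after toluene, with major sperm proteins at 1.39 with benzene, 0.90 with toluene, 2.22 with formaldehyde and 2.06 with the mix. The cyp-35 subfamily stood at 1.49 with benzene, 0.24 with toluene, 2.42 with formaldehyde and 2.55 with the mix. These cyp-35 medians cover the 7 of 10 genes past the level filter, whose mean includes the exposed arrays where members were high. With the dim members counted in, the benzene median was 0.54. The hypoxia list, given above, was not lowest after toluene. Of 99 lists with at least 5 genes past the filter, the benzene median lay between that of toluene and those of both formaldehyde-containing arrays in 43 and was the highest of the 4 in 37. The lists where it was highest include glycolysis, with 0.19 for benzene, 0.09 for toluene, 0.13 for formaldehyde and 0.11 for the mix, and the cytosolic heat shock genes, with 0.18, 0.16, 0.06 and 0.09 in the same order. Concentrations are not known, so these values do not rank the compounds.

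**Figure D4:**
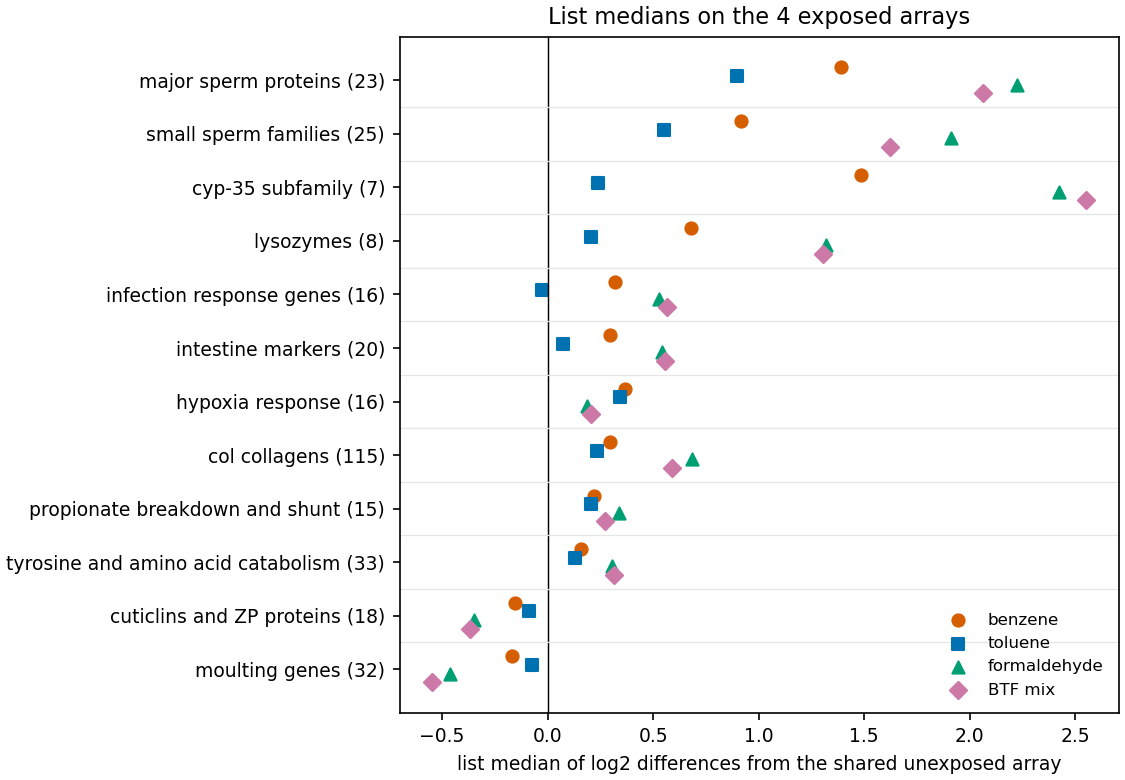
List median of the log2 differences from the shared unexposed array (x axis) for 12 gene lists, chosen after their values were seen, on the benzene, toluene, formaldehyde and BTF mix arrays, 1 array each, with the number of genes past the level filter in brackets. In 11 of those drawn benzene lies between toluene and the formaldehyde-containing arrays, and in the hypoxia list benzene (0.36) and toluene (0.34) lie above formaldehyde (0.19) and the mix (0.21). The level filter used the mean over all 5 arrays, exposed ones included.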

How the data were processed

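The authors deposited linear intensity values for 22625 probe sets. Per the submitters' processing notes, MAS5, RMA and Affymetrix Expression Console 1.1 were used, with no role stated, and the normalisation between arrays is not known. Identical intensities on both arrays occurred in 9.5% of probe sets and 5.36% of the genes past the level filter. The median intensity was 84.3 on the benzene array and 84.8 on the unexposed array, against a range of 82.3 to 83.7 on the other 3. Poly-A control spikes had a geometric mean of 301 on the benzene array and 410 on the unexposed array (ratio 0.734), and hybridisation spikes 775 and 824.

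Genes came from the platform annotation, and 20701 of the 20766 probe sets with a single gene matched the RefSeq gene table of assembly WBcel235. Gene counts leave out 887 probe sets listing several genes, 895 listing none and 77 controls. Where several probe sets read a gene (2981 genes), the one with the highest mean over all 5 arrays was taken, and the level filter used the same mean. Computation used Python 3.11.15, numpy 2.4.6 and pandas 2.3.3, and the steps were tested on simulated data.

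The members and lists were chosen with earlier results of these data known. From 101 gene lists the text names members 2-fold away, up to 10 a list, and otherwise up to 4 with the largest difference, any member of lists of 12 or fewer, and genes that define a process. It also names the 12 highest and 12 lowest genes, genes 2-fold lower and the 10 highest and 10 lowest name stems. Alternatives were no filter, a 60th percentile filter, median centring, quantile normalization, poly-A spike scaling, probe set means per gene, leaving out marked probe sets, pseudocounts of 1 and 64, and a 1.5-fold threshold. Differences are on the log2(intensity + 16) scale, which understates those of dim genes. No sequence is shown.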

Additional observations from a re-analysis of the deposited data

Results flagged for a closer look

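Probe sets outside the gene counts also differed between the arrays. Of 455 probe sets past the level filter that list several genes, 29 were 2-fold higher after benzene. Of these 8 list a major sperm protein gene, 12 list a gene of the small sperm families and 3 list a col collagen gene. The highest, for msp-56 and msp-10, had 4554 after benzene and 1623 in unexposed worms, a log2 difference of 1.48. Of 298 probe sets that list no gene, 1 was 2-fold higher and 1 was 2-fold lower.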

How the results depend on the processing

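Of the 57 list medians above 0, 8, the highest at 0.11, were below 0 under at least 1 alternative, among them UDP-glucuronosyltransferases at -0.005 with no level filter and -0.04 with a filter at the 60th percentile. Scaling on the poly-A spikes raised the median of all genes to 0.40, with 361 genes 2-fold higher, 7 lower and 97 list medians above 0.2 in place of 13, and turned the 9 list medians below -0.1 above 0. Medians were then 1.83 for major sperm proteins, 1.299 for small sperm families, 1.923 for the cyp-35 subfamily, 1.11 for lysozymes, 0.78 for hypoxia, 0.76 for infection response, 0.73 for intestine markers, 0.71 for col collagens and 0.66 for propionate genes. Without marked probe sets 57 genes were 2-fold higher, of which 55 were among the 123, 6 list medians were above 0.2, and medians were 0.33 for major sperm proteins, 1.097 for cyp-35 and 0.0551 for lysozymes. A pseudocount of 64 left 76 genes higher, since it shrinks the differences of dim genes, and gave cyp-35 a median of 1.16. Probe set means per gene gave cyp-35 1.097. With no level filter the medians were 0.54 for cyp-35 and 0.13 for lysozymes, as dim members entered. A filter at the 60th percentile gave col collagens 0.55 and turned 1 of the 9 low medians above 0. At 1.5-fold 357 genes were higher and 94 lower. Of the 141 genes 2-fold away, 141 shifted by over 0.25 under poly-A scaling, 28 with a pseudocount of 64 and 11 with mean probe sets. Without marked probe sets 2 shifted and 68 did not, and the rest of the 141 had no value to compare. No paired analysis was possible because each group has 1 array, and leaving out a replicate was not possible for the same reason.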

Other observations

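Ranked by gene-name stem, 141 stems had 8 or more genes past the level filter. After msp (1.39) and ssp (0.79) came cpr (0.55), nspg (0.32), lec (0.32), hsp (0.32), lbp (0.31), abu (0.30), col (0.29) and btb (0.21). The lec genes encode galectins, sugar-binding proteins, and lec-6 had 3837 after benzene and 1570.1 in unexposed worms (1.28), with lec-10 at 0.85 and lec-8 at 0.68. Of the lbp genes, which carry fatty acids, lbp-2 had 2471 against 1338 (0.88) and lbp-6 2902 against 1761 (0.72). The lowest stems were sma (-0.26), math (-0.24), ptr (-0.20), vab (-0.19), rgs (-0.17), gldi (-0.17), algn (-0.16), cutl (-0.13), wdr (-0.13) and mig (-0.13). Most sma genes belong to the TGF-beta pathway that sets body size, and among them sma-9 had 1173 against 1721 (-0.55) and sma-10 196 against 292 (-0.54).

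Neuronal lists held no gene 2-fold away, where 1.37% of all genes were. Of the 99 lists with at least 5 genes past the filter, 60 held none. FLP neuropeptide genes had a median of -0.05 over 24 genes, insulin-like genes -0.05 over 17 and ligand-gated ion channel genes -0.11 over 23, where avr-14, a glutamate-gated chloride channel subunit, had 62.4 against 118 (-0.77). Of 19 innexin genes, which form gap junctions, inx-1 (-0.61) and unc-9 (-0.59) were 1.5-fold lower, whereas the gonad sheath pair inx-8 (0.44) and inx-9 (0.40) were higher. In the folate, methionine and one-carbon list (27 genes, median 0.23), folt-2, of the folate transporter family, had 534 against 174 (1.54) on a marked probe set. There cth-1 of cysteine synthesis had 221 against 127 (0.73). msra-1 (1.598) is also on that list, and so is mtre-1, placed there from its name, which at -2.03 was its only 2-fold lower gene. Among 16 heme genes, hrg-11.2 stood at 1.15 beside hrg-7. Of 33 transthyretin-related genes, ttr-14 had 335 against 148 (1.097). Of the 123 higher genes 36, and of the 18 lower genes 8, were in no list. The highest of those was Y39B6A.1 with 1579 against 438 (1.81), next in rank to spig-20, which had 1273 against 341 (1.85).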
